A study of Mus musculus with 17 samples.

Results

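The comparison set RNA bound to ribosomes at the endoplasmic reticulum (ER) against whole-cell RNA in mouse embryonic stem cells that had received an siRNA against Nmd3. It rests on 6 of the 17 libraries of the series, 3 of ER ribosome-bound RNA and 3 of whole-cell RNA, chosen by the siRNA and fraction named in the labels. All 6 came from the Rpl31-FTA E14Tg2a.4 line, whose large-subunit ribosomal protein Rpl31 is fused to a FLAG-TEV-AviTag. Cultures were kept in serum plus leukemia inhibitory factor. A proximity biotinylation system named ALIBi, directed here to the ER, marked tagged ribosomes near it with biotin. Lysates were made with cycloheximide, the biotinylated ribosomes were captured on beads, and polyA RNA of the eluate was sequenced. An aliquot of each lysate, taken before purification, gave the whole-cell library, so the whole-cell group carries the same tag, labelling system and siRNA. The whole-cell library therefore also holds the mRNAs that are on ER ribosomes. The scramble siRNA groups used for the interaction below held 2 ER ribosome-bound and 3 whole-cell libraries. The Gnl3 siRNA groups, 3 libraries each, entered no comparison. They took part in the estimate of spread, the filter on low counts and the scaling. The replicates are biological ones by their labels, and the dose and time of the siRNA are not given in the sources used here. Whether the line is 1 clone is not given either.

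Proteins bound for the secretory pathway begin with a hydrophobic signal peptide or hold a hydrophobic membrane segment. The signal recognition particle binds such a segment as it leaves the ribosome and brings the translating ribosome to the Sec61 channel of the ER, where the protein is threaded into the lumen or the membrane. Tail-anchored membrane proteins, proteins imported into mitochondria after synthesis, and cytosolic and nuclear proteins are in the textbook scheme made on ribosomes free in the cytosol. Nmd3 is the adaptor through which newly made 60S ribosomal subunits leave the nucleus.

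Nmd3 mRNA, the siRNA's target, stood at 25.2, 24.1 and 25.2 CPM on ER ribosomes, against 43.7, 72.3 and 43.2 CPM in whole-cell RNA. The scramble siRNA libraries held 124 and 119.98 CPM on ER ribosomes and 153, 154 and 150.2 CPM in whole-cell RNA, so the target was lower in every Nmd3 siRNA library than in any scramble library. CPM are a gene's counts scaled to 1 M gene counts of the library. Within Nmd3 siRNA cells, Nmd3 mRNA was lower on ER ribosomes than in whole-cell RNA (log2 fold change -1.32 ± 0.30, adjusted p = 0.00735, and -0.82 in the smaller fit), and the groups did not overlap, with whole-cell replicate 2 the highest library. Here and below, errors on fold changes are standard errors, fold changes are ER ribosome-bound over whole-cell on the log2 scale, and p-values come from the edgeR quasi-likelihood test with Benjamini-Hochberg adjustment over all genes tested. Rpl31, the tagged protein's gene, had 981, 891 and 898 CPM on ER ribosomes, against 429, 857 and 740.0 CPM in whole-cell RNA. Its ER values all lay above the whole-cell values, and the 17-library fit did not call it (log2 fold change 0.23 ± 0.26, adjusted p = 0.613, and 0.64 in the smaller fit, adjusted p = 0.0168).

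The 6 libraries held 16.01 to 22.8 M gene counts. Whole-cell replicate 2 stood apart from the other whole-cell libraries. Its mRNAs of short proteins were higher and those of long proteins lower: the median log2 ratio of the library to the mean of the other whole-cell libraries was 0.39 in the shortest quintile of proteins and -1.10 in the longest. In the ER libraries the same medians stayed between -0.07 and 0.07. Of 9681 genes at 10 CPM or more on average, whole-cell replicate 2 was over 1.5 times above both other replicates for 1287 and below both by that factor for 3975, against at most 111 for any other of the 6 libraries, ER replicate 2. Values are therefore given from the fit of all 17 libraries and, beside most of them, from a smaller fit of 15, which leaves out this library and Gnl3 siRNA whole-cell replicate 3, also standing apart. RNA quality values are not among the labels used here, and the part of RNA quality in this difference was not tested. The embryonic stem cell markers, Pou5f1, Sox2, Nanog and 6 others, were all present and summed to 9574 to 10152 CPM on ER ribosomes and 7169.8 to 10016 CPM in whole-cell RNA. Fibroblast or feeder markers summed to 8.35 to 10.1 CPM on ER ribosomes and 2.06 to 6.12 CPM in whole-cell RNA, with Lum and Postn at 0 counts in all 6 libraries. The part of feeder cells in the results was not tested. In bulk RNA, fewer cells of a type and less RNA per cell cannot be told apart.

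Of 18525 genes tested, 2819 (15.2%) were called at an adjusted p under 0.05, 1429 (7.71%) higher and 1390 (7.5%) lower on ER ribosomes. The smaller fit called 9152 of 18271 genes (50.1%), 4473 higher (24.5%) and 4679 lower (25.6%). Of the 2809 genes called by the 17-library fit and tested in both, 2795 were called in the same direction by the smaller fit, 14 were not called and 0 were called in the other direction. With the lysate as a block, since each lysate gave both fractions, the 17-library fit called 770 higher and 550 lower. Without whole-cell replicate 2 alone the count was 5421, and without ER replicate 1, 2 or 3 it was 1815, 1785 or 1819. CPM of the 3 ER and the 3 whole-cell libraries did not overlap for 5053 genes (27.3%), 3772 of them higher on ER ribosomes. The median log2 fold change of all genes was -0.11, and 0.01 in the smaller fit. Scaling by library totals alone raised that median by 0.15, and 70.4% of the calls were then higher, against 50.7% with TMM scaling. Fold changes are relative within a library, so a larger share for some mRNAs lowers the share of others.

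Among genes of at least 10 CPM on average, called in both fits without overlap, the highest fold changes were mainly of mRNAs for proteins entering the ER. Cd68, a heavily glycosylated membrane protein of lysosomes and endosomes, had 33.4, 33.7 and 34.7 CPM on ER ribosomes, against 8.12, 5.35 and 14.7 CPM in whole-cell RNA (log2 fold change 1.75 ± 0.25, adjusted p = 0.000295, and 1.55 in the smaller fit). The 3 ER values were close together and all lay well above the whole-cell values. Nucb1, a calcium-binding protein of the Golgi lumen, had 101, 104 and 102 CPM on ER ribosomes, against 35.8, 15.3 and 38.6 CPM in whole-cell RNA (log2 fold change 1.67 ± 0.18, adjusted p = 3.28e-05, and 1.44 in the smaller fit). Gm2a, the lysosomal activator protein that presents GM2 ganglioside to its hydrolase, had 45.8, 52.5 and 55.2 CPM on ER ribosomes, against 18.2, 8.16 and 19.5 CPM in whole-cell RNA (log2 fold change 1.65 ± 0.18, adjusted p = 3.68e-05, and 1.43 in the smaller fit). Trh, the precursor of thyrotropin-releasing hormone, had 293, 304 and 305 CPM on ER ribosomes, against 106, 49.6 and 123 CPM in whole-cell RNA (log2 fold change 1.601 ± 0.18, adjusted p = 5.25e-05, and 1.38 in the smaller fit). For these genes the ER libraries were close together, whole-cell replicate 2 was the lowest of the 6, and whole-cell replicates 1 and 3 were near each other except for Cd68.

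The rest of the 12 highest genes were of several kinds. Tpp1, a lysosomal tripeptidyl peptidase, had 99.2, 104 and 112 CPM on ER ribosomes and 41.7, 11.1 and 47.4 CPM in whole-cell RNA (log2 fold change 1.59 ± 0.28, adjusted p = 0.00134, and 1.23 in the smaller fit). Plbd2, a lysosomal phospholipase B-like protein, had 93.3, 91.3 and 90.9 CPM on ER ribosomes and 38.5, 11.98 and 41.6 CPM in whole-cell RNA (log2 fold change 1.51 ± 0.29, adjusted p = 0.00225, and 1.18 in the smaller fit). The fractions of both genes stood apart, as the rule for the 12 highest genes requires. Cnpy3, an ER chaperone for Toll-like receptors, had 73.4, 67.0 and 67.4 CPM on ER ribosomes and 31.2, 11.9 and 24.6 CPM in whole-cell RNA (log2 fold change 1.52 ± 0.22, adjusted p = 0.000348, and 1.31 in the smaller fit). Thy1, a surface protein held by a glycosylphosphatidylinositol (GPI) anchor, had 30.8, 29.3 and 32.7 CPM on ER ribosomes and 8.18, 8.60 and 11.5 CPM in whole-cell RNA (log2 fold change 1.55 ± 0.15, adjusted p = 1.67e-05, and 1.63 in the smaller fit). Ifitm2, a small interferon-inducible membrane protein, had 441, 433 and 422 CPM on ER ribosomes and 103, 116 and 169 CPM in whole-cell RNA (log2 fold change 1.58 ± 0.19, adjusted p = 0.000103, and 1.65 in the smaller fit). In Thy1 and Ifitm2, whole-cell replicate 2 lay among or beside the other whole-cell libraries, and their fold changes were as large in the smaller fit. Reep6, a membrane protein of the ER, had 40.01, 37.9 and 44.7 CPM on ER ribosomes and 13.4, 4.83 and 18.7 CPM in whole-cell RNA (log2 fold change 1.66 ± 0.29, adjusted p = 0.00132, and 1.33 in the smaller fit). The remaining members were 2 noncoding entries. Atp6v0c-ps2, a processed pseudogene whose transcript is 99.8% identical to that of Atp6v0c over 465 bases, had 80.5, 88.1 and 83.9 CPM on ER ribosomes and 20.5, 12.3 and 34.4 CPM in whole-cell RNA (log2 fold change 1.81 ± 0.48, adjusted p = 0.0181, or 0.0546 with lysate as a block, and 1.595 in the smaller fit). Its counts and those of Atp6v0c may be split between near-identical copies. The call on Atp6v0c-ps2 was lost without whole-cell replicate 1 or ER replicate 2 (adjusted p = 0.0544 to 0.0665). Gm47079 had 89.7, 93.1 and 90.2 CPM on ER ribosomes and 23.4, 27.1 and 29.4 CPM in whole-cell RNA (log2 fold change 1.597 ± 0.16, adjusted p = 2.25e-05, and 1.77 in the smaller fit) and shares exon sequence on the other strand with Icam1, Icam4 and Icam5. The kit marks strand, but the strand setting of counting is not given, so reads of these genes cannot be told apart. Exons of an opposite-strand gene also overlap those of Gnl3, Rpl31, Plbd2, Ppib, Sec61a1, Hmgcs1, Bak1, Ucp2, Rps2, Dync1h1, Dleu2, Tmem33, Tpr, Itpr1, Pex14, Far1, Pltp, Tbx3, Atp6v0a2, Atp6v0b, Atp6v1e1, Atp6v1h and Pom121, described here or below, and the same limit holds for them. It also holds for Dancr, Snhg3, mt-Co1 and Snhg14, which overlaps the coding gene Ube3a.

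**Figure D1:**
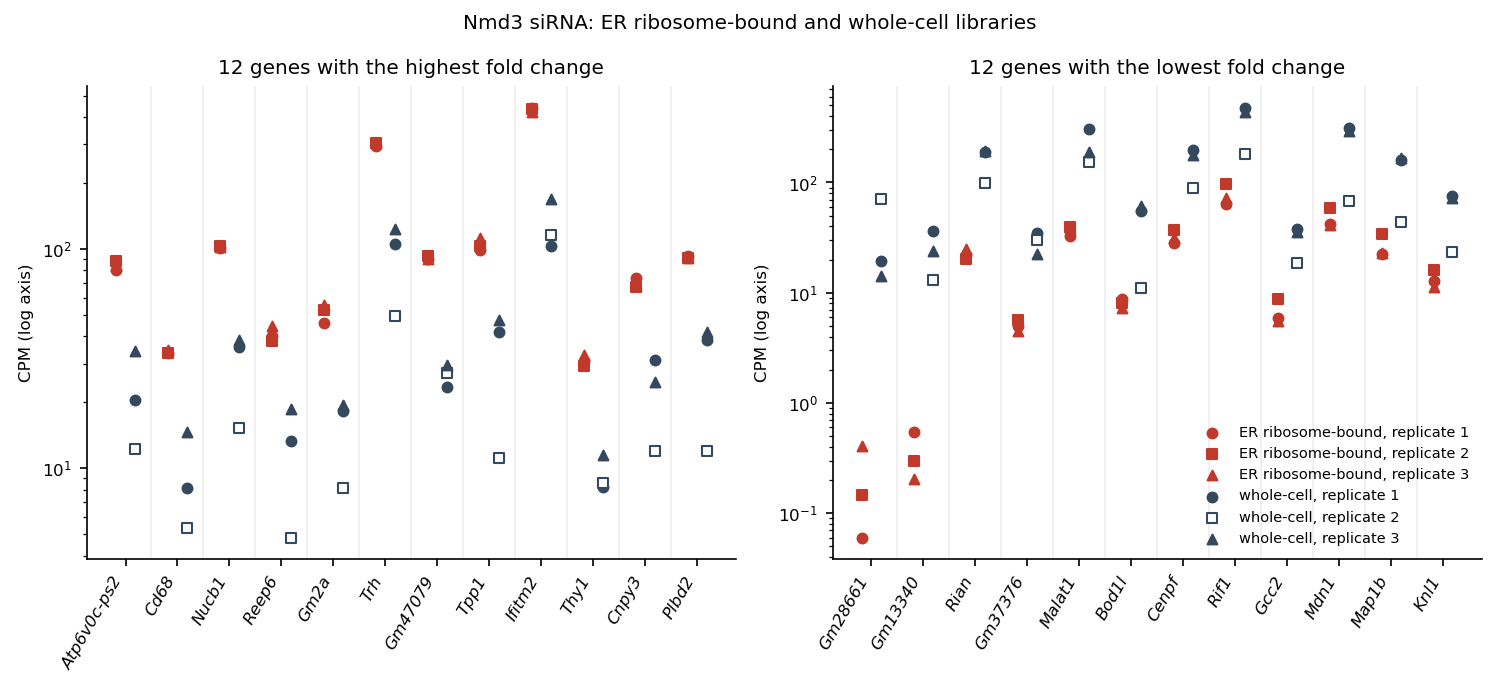
CPM on a log axis in each Nmd3 siRNA library, ER ribosome-bound (red, left of each gene) and whole-cell (dark, right), for the 12 genes with the highest and the 12 with the lowest log2 fold change; open squares are whole-cell replicate 2. The rule that picks these 24 genes admits only genes of at least 10 CPM on average that were called in both fits. It also requires that the 2 fractions do not overlap, and it leaves out the mitochondrially encoded mRNAs. Whole-cell replicate 2 is the lowest library for most of the highest genes and the nearest to the ER values for most of the lowest. The fold changes that rank the genes include that library.

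The coding starts of the 3 highest genes whose product holds an N-terminal hydrophobic stretch, Cd68, Nucb1 and Gm2a, are shown with that of Bmpr2, a bone morphogenetic protein receptor that also begins with such a stretch but was lower on ER ribosomes. Each line gives the first 120 coding bases, 5′ to 3′, in the sense of the mRNA, from GENCODE M21 transcripts (GRCm38). Capitals mark the 33 bases that encode the 11-residue window of highest mean Kyte-Doolittle hydropathy. Cd68 and Gm2a lie on chromosome 11, on the minus and the plus strand, Nucb1 on the minus strand of chromosome 7 and Bmpr2 on the plus strand of chromosome 1.
Cd68: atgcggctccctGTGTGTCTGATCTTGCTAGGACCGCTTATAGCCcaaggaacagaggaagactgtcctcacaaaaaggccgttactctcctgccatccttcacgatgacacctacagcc
Nucb1: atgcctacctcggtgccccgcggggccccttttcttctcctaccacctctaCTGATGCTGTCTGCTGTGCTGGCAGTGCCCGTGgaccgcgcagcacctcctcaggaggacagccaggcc
Gm2a: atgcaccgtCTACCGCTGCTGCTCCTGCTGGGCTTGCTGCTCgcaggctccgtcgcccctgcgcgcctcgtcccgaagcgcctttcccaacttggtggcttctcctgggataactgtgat
Bmpr2: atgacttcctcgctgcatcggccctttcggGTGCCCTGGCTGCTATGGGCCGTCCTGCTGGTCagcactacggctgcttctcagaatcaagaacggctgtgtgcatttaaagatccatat
The window spans codons 5 to 15 in Cd68 (mean hydropathy 2.79), 18 to 28 in Nucb1 (2.46), 4 to 14 in Gm2a (2.93) and 11 to 21 in Bmpr2 (2.38). In all 4 it sits before codon 30, and the window of Bmpr2 has the lowest mean. The 4 products differ in length: 326 residues for Cd68, 459 for Nucb1, 193 for Gm2a and 1038 for Bmpr2.

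Many mRNAs for the machinery of the ER and Golgi were higher on ER ribosomes, and few were lower. In the list of ER targeting, translocon and membrane insertion factors, 25 of its 50 members tested were called higher and 0 lower, with a median log2 fold change of 0.55, and the smaller fit called 40 higher and 5 lower, median 0.66. Sec61a1, the channel-forming subunit of the translocon, had 413, 479 and 426 CPM on ER ribosomes, against 209.7, 104 and 234 CPM in whole-cell RNA (log2 fold change 1.17 ± 0.18, adjusted p = 0.000642, and 0.98 in the smaller fit). Ncln, part of a complex that acts beside Sec61 on multipass proteins, had 169, 197 and 169 CPM on ER ribosomes and 83.8, 40.7 and 78.0 CPM in whole-cell RNA (log2 fold change 1.30 ± 0.25, adjusted p = 0.00244, and 1.13 in the smaller fit). Tmem147, its partner in that complex, had 81.1, 92.5 and 84.1 CPM on ER ribosomes and 26.3, 43.2 and 32.4 CPM in whole-cell RNA (log2 fold change 1.13 ± 0.25, adjusted p = 0.00675, and 1.54 in the smaller fit). All 3 were higher in each ER library than in any whole-cell library. In the list of oligosaccharyltransferase, N-glycan and GPI anchor enzymes, 29 of its 60 members tested were called higher and 1 lower, with a median log2 fold change of 0.64, and the smaller fit called 49 higher and 3 lower, median 0.77. Ddost, a subunit of the oligosaccharyltransferase, had 329.9, 387 and 338 CPM on ER ribosomes and 131, 92.5 and 149 CPM in whole-cell RNA (log2 fold change 1.37 ± 0.12, adjusted p = 8.89e-06, and 1.32 in the smaller fit).

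Among ER chaperones, folding enzymes and genes of the unfolded protein response, 32 of its 58 members tested were called higher and 0 lower, with a median log2 fold change of 0.70, and the smaller fit called 51 higher and 1 lower, median 0.86. The number called higher was 21 with lysate as a block. Ppib, a prolyl isomerase of the ER lumen, had 327, 378 and 333 CPM on ER ribosomes, against 120.1, 109 and 136 CPM in whole-cell RNA (log2 fold change 1.36 ± 0.12, adjusted p = 1.07e-05, and 1.43 in the smaller fit), and here whole-cell replicate 2 lay close to the others. Derl3, a membrane protein of ER-associated degradation, had 9.31, 9.49 and 8.72 CPM on ER ribosomes and 3.87, 1.98 and 3.64 CPM in whole-cell RNA (log2 fold change 1.43 ± 0.37, adjusted p = 0.0151, or 0.0736 with lysate as a block, and 1.28 in the smaller fit). The call on Derl3 was lost without ER replicate 2 (adjusted p = 0.0504). In the list of Golgi enzymes, residents and cargo receptors, 34 of its 66 members tested were called higher and 1 lower, with a median log2 fold change of 0.64, and the smaller fit called 48 higher and 6 lower, median 0.61. Tmed9, a p24 cargo receptor that cycles between ER and Golgi, had 240.4, 258 and 267 CPM on ER ribosomes and 99.1, 93.2 and 103 CPM in whole-cell RNA (log2 fold change 1.21 ± 0.19, adjusted p = 0.000552, and 1.33 in the smaller fit), with whole-cell values within 10 CPM of each other. Chst12, a Golgi chondroitin sulfotransferase, had 23.4, 29.9 and 19.8 CPM on ER ribosomes and 9.31, 7.55 and 10.6 CPM in whole-cell RNA (log2 fold change 1.27 ± 0.16, adjusted p = 0.000119, and 1.28 in the smaller fit).

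Most calls on mRNAs for cargo of the pathway were in the same direction. In the list of secreted and extracellular matrix proteins, 33 of its 58 members tested were called higher and 0 lower, with a median log2 fold change of 0.82, and the smaller fit called 44 higher and 3 lower, median 0.92. Mfge8, a secreted glycoprotein that bridges dying cells and phagocytes, had 203, 226 and 191 CPM on ER ribosomes, against 75.3, 48.6 and 77.1 CPM in whole-cell RNA (log2 fold change 1.50 ± 0.21, adjusted p = 0.00023, and 1.43 in the smaller fit). Tgfb1, a latent growth factor, had 18.7, 19.7 and 21.2 CPM on ER ribosomes and 6.68, 5.44 and 8.22 CPM in whole-cell RNA (log2 fold change 1.41 ± 0.15, adjusted p = 3.84e-05, and 1.40 in the smaller fit). Among lysosomal hydrolases and membrane proteins, 44 of its 60 members tested were called higher and 0 lower, with a median log2 fold change of 0.92, and the smaller fit called 55 higher and 1 lower, median 0.94. That list had the highest median of the 41 lists in the 17-library fit. Among plasma membrane receptors and adhesion proteins, 35 of its 67 members tested were called higher and 1 lower, with a median log2 fold change of 0.67, and the smaller fit called 43 higher and 8 lower, median 0.53, and among solute carriers and ion transporters, 23 of its 61 members tested were called higher and 2 lower, with a median log2 fold change of 0.59, and the smaller fit called 50 higher and 4 lower, median 0.47. Slc7a5, the large neutral amino acid transporter, had 587, 653 and 601 CPM on ER ribosomes and 356, 114 and 361 CPM in whole-cell RNA (log2 fold change 1.07 ± 0.25, adjusted p = 0.00885, and 0.77 in the smaller fit). Slc46a1, the proton-coupled folate transporter, had 27.3, 26.0 and 22.6 CPM on ER ribosomes and 9.62, 6.10 and 12.8 CPM in whole-cell RNA (log2 fold change 1.30 ± 0.17, adjusted p = 0.000179, and 1.16 in the smaller fit). Leaving out 1 library gave between 23 and 40 secreted, 33 and 52 lysosomal, 25 and 36 receptor and 13 and 29 carrier mRNAs called higher. The number of receptors called higher was 23 with lysate as a block. The number of carriers called higher was 13 without ER replicate 2 and 13 with lysate as a block.

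**Figure D2:**
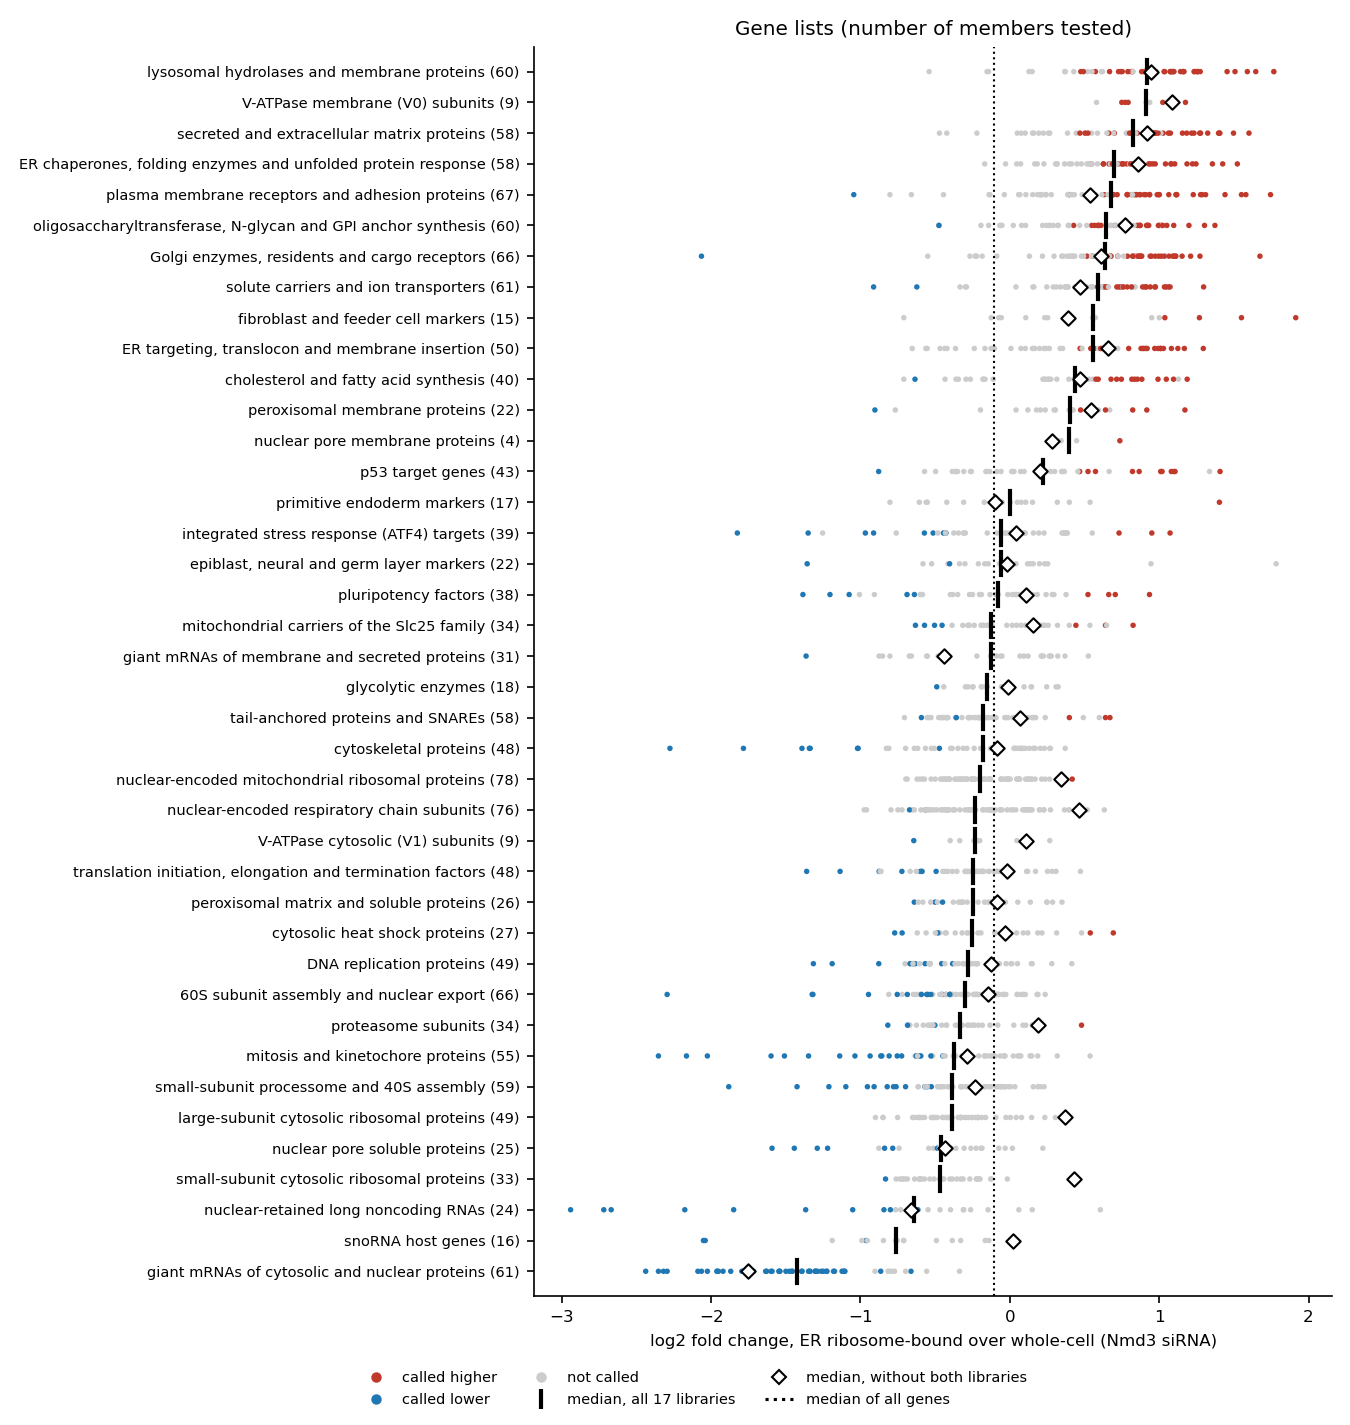
Log2 fold change of each member tested (points; red called higher, blue called lower, grey not called, in the fit of all 17 libraries) in 40 gene lists ordered by their median (bar), with the median of the smaller fit (open diamond) and the median of all genes (dotted). Lists of the secretory pathway lie at the top with medians of 0.55 to 0.92, together with the fibroblast and feeder marker list (0.55). The mitochondrially encoded list, median -6.40, is off the scale and not drawn.

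A few members of these lists were called lower. Golgb1, giantin, a very long Golgi membrane protein of 3238 residues anchored by its C-terminus, had 11.4, 14.2 and 11.7 CPM on ER ribosomes, against 67.5, 20.7 and 60.1 CPM in whole-cell RNA (log2 fold change -2.06 ± 0.26, adjusted p = 0.00012, and -2.36 in the smaller fit). Bmpr2 had 10.7, 8.01 and 10.7 CPM on ER ribosomes and 20.0, 13.3 and 21.9 CPM in whole-cell RNA (log2 fold change -1.04 ± 0.29, adjusted p = 0.0232, or 0.0607 with lysate as a block, and -1.12 in the smaller fit). The call on Bmpr2 was lost without ER replicate 1, whole-cell replicate 1, ER replicate 2, ER replicate 3 or whole-cell replicate 3 (adjusted p = 0.0511 to 0.102). Slc4a7, a sodium bicarbonate transporter, had 30.1, 36.3 and 35.4 CPM on ER ribosomes and 61.6, 26.6 and 58.6 CPM in whole-cell RNA (log2 fold change -0.62 ± 0.19, adjusted p = 0.0334, or 0.148 with lysate as a block, and -0.83 in the smaller fit). The Slc4a7 groups overlap through whole-cell replicate 2, which held the lowest value. The call on Slc4a7 was lost without ER replicate 1, whole-cell replicate 1, ER replicate 2, ER replicate 3 or whole-cell replicate 3 (adjusted p = 0.0597 to 0.14). Slc7a11, the cystine transporter, had 1.08, 2.11 and 1.78 CPM on ER ribosomes and 3.31, 2.15 and 3.19 CPM in whole-cell RNA (log2 fold change -0.91 ± 0.25, adjusted p = 0.0221, or 0.105 with lysate as a block, and -0.95 in the smaller fit). The call on Slc7a11 was lost without ER replicate 1, whole-cell replicate 1 or ER replicate 3 (adjusted p = 0.0568 to 0.0994). Piga, the catalytic subunit of the first step of GPI synthesis, had 26.4, 27.0 and 26.2 CPM on ER ribosomes and 37.3, 26.5 and 36.7 CPM in whole-cell RNA (log2 fold change -0.47 ± 0.15, adjusted p = 0.0437, or 0.119 with lysate as a block, and -0.49 in the smaller fit), with whole-cell replicate 2 among the ER values. The call on Piga was lost without ER replicate 1, whole-cell replicate 1, ER replicate 2, ER replicate 3 or whole-cell replicate 3 (adjusted p = 0.0782 to 0.127).

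In the list of cholesterol and fatty acid enzymes, 14 of its 40 members tested were called higher and 1 lower, with a median log2 fold change of 0.44, and the smaller fit called 29 higher and 6 lower, median 0.47. The number called higher was 8 without ER replicate 2, 9 without ER replicate 3 and 5 with lysate as a block. Dhcr7, the last enzyme of cholesterol synthesis at the ER membrane, had 60.1, 77.3 and 70.2 CPM on ER ribosomes and 32.2, 14.7 and 38.5 CPM in whole-cell RNA (log2 fold change 1.19 ± 0.20, adjusted p = 0.00099, and 0.96 in the smaller fit). The fatty acid desaturase Fads1 had 115, 129 and 119 CPM on ER ribosomes and 60.4, 35.6 and 65.7 CPM in whole-cell RNA (log2 fold change 1.05 ± 0.13, adjusted p = 0.000116, and 0.93 in the smaller fit). Its relative Fads2 had 87.2, 92.6 and 90.0 CPM on ER ribosomes and 45.9, 21.7 and 50.2 CPM in whole-cell RNA (log2 fold change 1.10 ± 0.16, adjusted p = 0.000387, and 0.89 in the smaller fit). All 3 span the ER membrane. The member called lower, Hmgcs1, is the soluble cytosolic synthase of the same pathway and had 107, 102 and 108 CPM on ER ribosomes, against 162, 134 and 145 CPM in whole-cell RNA (log2 fold change -0.63 ± 0.14, adjusted p = 0.00725, or 0.0503 with lysate as a block, and -0.55 in the smaller fit). The Hmgcs1 groups did not overlap.

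The V-ATPase, the proton pump of lysosomes and Golgi, joins membrane subunits (V0) and cytosolic subunits (V1) in 1 complex. Of 9 V0 and accessory membrane subunits, 6 were called higher and 0 lower, with a median log2 fold change of 0.91, and the smaller fit called 9 of 9 higher (median 1.09). Of 9 subunits outside the membrane, 8 of V1 and the peripheral V0 subunit Atp6v0d1, 0 were called higher and 1 lower (median -0.23), and the smaller fit called 4 higher and 2 lower (median 0.11). Atp6ap1, a membrane accessory subunit, had 71.8, 81.1 and 85.1 CPM on ER ribosomes, against 32.2, 27.4 and 41.7 CPM in whole-cell RNA (log2 fold change 1.09 ± 0.13, adjusted p = 6.9e-05, and 1.09 in the smaller fit). Atp6v0e, a small membrane subunit, had 109, 107 and 124 CPM on ER ribosomes and 39.0, 58.8 and 46.9 CPM in whole-cell RNA (log2 fold change 1.02 ± 0.20, adjusted p = 0.00271, and 1.39 in the smaller fit). Its relative Atp6v0e2 had 20.1, 16.9 and 18.6 CPM on ER ribosomes and 8.81, 6.41 and 6.94 CPM in whole-cell RNA (log2 fold change 1.18 ± 0.17, adjusted p = 0.000387, and 1.23 in the smaller fit). None of these subunits overlapped between the fractions. The large subunits Atp6v0a1 and Atp6v0a2 had log2 fold changes of 0.77 ± 0.17 and 0.75 ± 0.16, lower in the smaller fit at 0.56 and 0.54, and for Atp6v0a1 the block gave an adjusted p of 0.0518. Tcirg1 had 15.4, 17.5 and 12.3 CPM on ER ribosomes and 8.18, 5.97 and 9.73 CPM in whole-cell RNA (log2 fold change 0.79 ± 0.24, adjusted p = 0.0381, or 0.116 with lysate as a block, and 0.74 in the smaller fit). The call on Tcirg1 was lost without ER replicate 1, whole-cell replicate 1, ER replicate 2 or whole-cell replicate 2 (adjusted p = 0.0528 to 0.159).

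The 17-library fit did not call 3 membrane subunits. Atp6v0b, of the rotating ring, had 157, 175 and 162 CPM on ER ribosomes and 62.1, 101 and 61.1 CPM in whole-cell RNA. The ring proteolipid Atp6v0c had 119, 124 and 116 CPM on ER ribosomes and 56.8, 61.7 and 45.7 CPM in whole-cell RNA. The accessory subunit Atp6ap2 had 91.1, 102 and 99.6 CPM on ER ribosomes and 54.0, 67.9 and 48.3 CPM in whole-cell RNA. Adjusted p-values were 0.0604 for Atp6v0b, 0.158 for Atp6v0c and 0.0527 for Atp6ap2. In each, all ER values lay above all whole-cell values, and the smaller fit gave log2 fold changes of 1.41, 1.22 and 0.93. Atp6v1a, the catalytic V1 subunit, had 109, 111 and 112 CPM on ER ribosomes, against 192, 106 and 180.3 CPM in whole-cell RNA (log2 fold change -0.64 ± 0.12, adjusted p = 0.00174, and -0.76 in the smaller fit). Its groups overlapped only through whole-cell replicate 2. Atp6v1b2, the other subunit of the catalytic ring, had 185, 195 and 189.9 CPM on ER ribosomes and 230.0, 163 and 216 CPM in whole-cell RNA (log2 fold change -0.23 ± 0.13, adjusted p = 0.278, and -0.24 in the smaller fit, adjusted p = 0.000286). Atp6v1h, which links ring and stalk, had 97.1, 103 and 98.4 CPM on ER ribosomes and 101, 131 and 95.02 CPM in whole-cell RNA (log2 fold change -0.34 ± 0.19, adjusted p = 0.273, and 0.01 in the smaller fit). Both groups overlapped. The small V1 subunits Atp6v1d, Atp6v1f and Atp6v1g1 had log2 fold changes of -0.20, 0.05 and -0.40 that were not called, and 0.41, 0.51 and 0.32 in the smaller fit, where all 3 were called. The remaining Atp6v1c1 and Atp6v1e1 stood at -0.24 and -0.21, and at 0.05 and 0.11 in the smaller fit, called in neither. Atp6v0d1 had 136, 137 and 146 CPM on ER ribosomes and 87.1, 117 and 100.1 CPM in whole-cell RNA (log2 fold change 0.27 ± 0.19, adjusted p = 0.406, and 0.57 in the smaller fit, adjusted p = 2.62e-09).

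**Figure D3:**
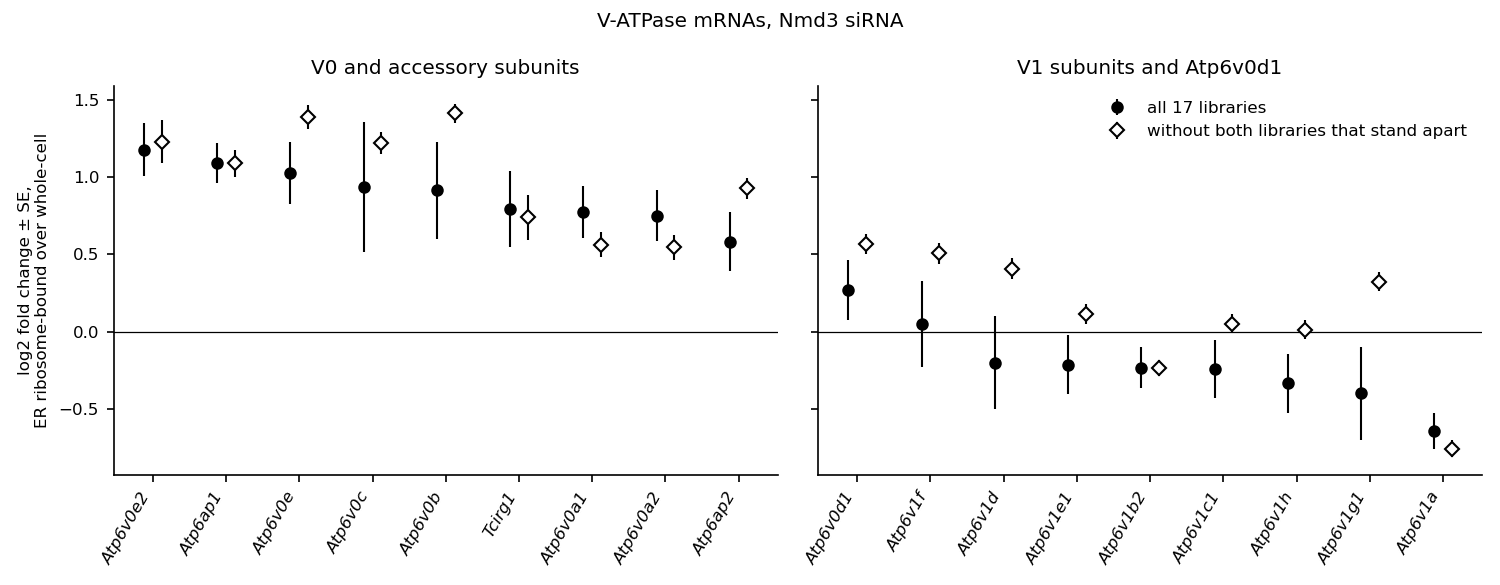
Log2 fold change (ER ribosome-bound over whole-cell, ± SE) of each V-ATPase mRNA, in the fit of all 17 libraries (filled) and without both libraries that stood apart (open). The V0 and accessory membrane subunits lie between 0.54 and 1.41 in the 2 fits, and the V1 subunits with Atp6v0d1 between -0.76 and 0.57.

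Across all mRNAs, the share called higher varied with the hydrophobic segments of the encoded protein. Of 14308 tested genes with a coding sequence, 9.45% were called higher and 8.12% lower. Among the 9006 whose product held no hydrophobic stretch or segment, 1.799% were called higher and 9.60% lower, with a median log2 fold change of -0.18. An N-terminal stretch was defined as an 11-residue window of mean hydropathy 2.0 or more within the first 40 residues, and a segment as a later 19-residue window of 1.6 or more. With an N-terminal stretch and no further segment, as in many secreted proteins, 27.7% of 1204 were called higher and 1.66% lower (median 0.46). With 1 further segment, as in single-pass receptors, 34.0% of 788 were called higher (median 0.62), and with 2 to 3 further segments 36.1% of 324 (median 0.69). Multipass products with 4 or more segments were called higher in 28.6% of 357 genes with an N-terminal stretch and 25.9% of 642 without. With 2 to 3 segments and no N-terminal stretch, 18.1% of 520 genes were called higher and 13.3% lower (median 0.09). A single segment ending within the last 50 residues, the arrangement of tail-anchored proteins, gave 8.51% higher and 5.67% lower of 282 genes, and a single segment elsewhere 7.17% higher and 13.3% lower of 1185. These 3 classes moved when a segment needed a mean hydropathy of 1.8. A single segment near the end then gave 12.8% higher and 3.88% lower, a single segment elsewhere 12.7% higher and 11.7% lower, so that its higher calls outnumbered its lower ones, and 2 to 3 segments 28.97% higher and 4.98% lower. In the smaller fit the no-segment class had 19.6% higher and 32.2% lower, and the 4 classes with an N-terminal stretch had 51.0% to 61.5% higher and 2.48% to 7.53% lower. Genes are not independent replicates, and these shares carry no test.

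**Figure D4:**
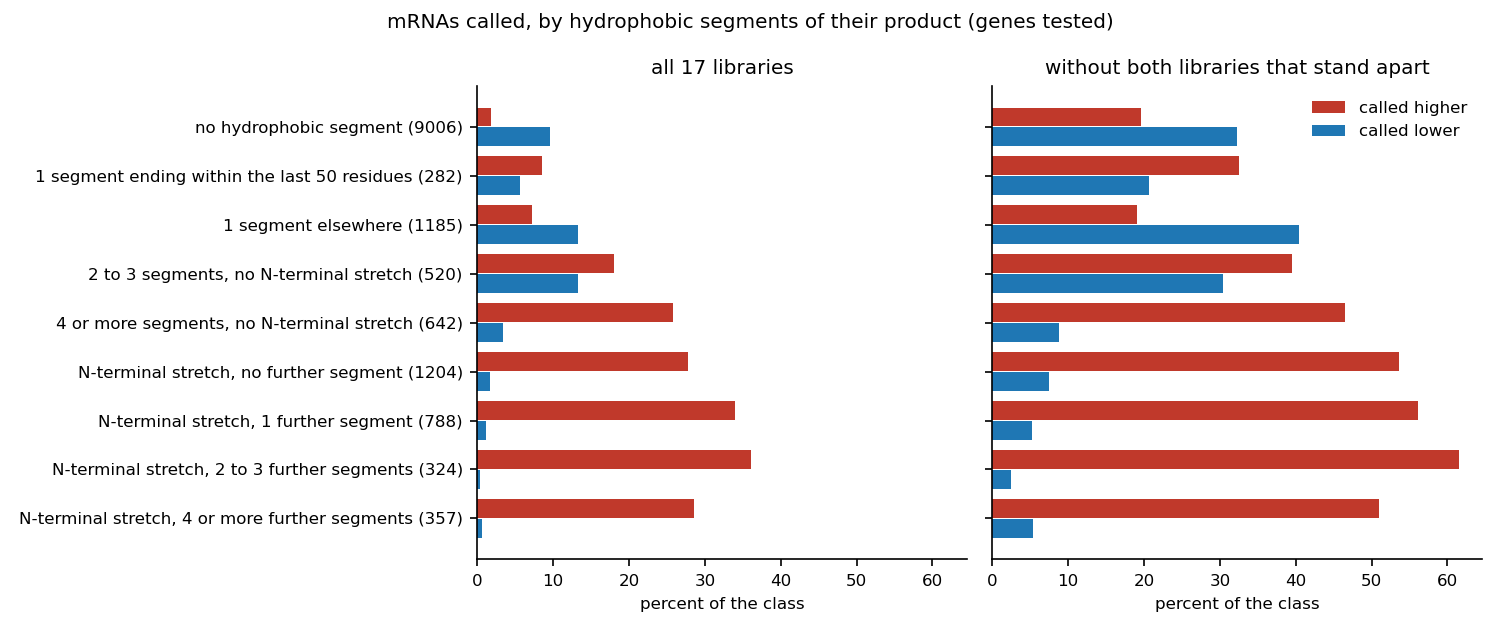
Percent of genes called higher (red) and lower (blue) on ER ribosomes, by the hydrophobic stretches and segments of the protein, with the number of genes tested in brackets, in the fit of all 17 libraries (left) and without both libraries that stood apart (right). The share called higher is 1.799% with no segment and 25.9% to 36.1% with an N-terminal stretch or 4 or more segments in the left panel.

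Counted by reads, mRNAs whose product has an N-terminal stretch took 11.6%, 12.5% and 11.9% of gene counts on ER ribosomes, against 7.96%, 6.47% and 7.93% in whole-cell RNA. The means were 11.97% ± 0.456 on ER ribosomes and 7.45% ± 0.849 in whole-cell RNA (SD, n = 3 each, two-sided exact permutation p = 0.1, the smallest that 3 against 3 allows), and 7.94% in whole-cell RNA without replicate 2. The mRNAs of proteins with no hydrophobic segment took 71.0%, 69.6% and 70.5% of gene counts on ER ribosomes, against 71.6%, 76.1% and 71.5% in whole-cell RNA. Their means were 70.4% ± 0.699 on ER ribosomes and 73.1% ± 2.64 in whole-cell RNA (SD, n = 3 each, exact permutation p = 0.1), and 71.6% in whole-cell RNA without replicate 2. These mRNAs took the larger part of the counts in both fractions.

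Protein length moved with the calls as well. From the shortest to the longest quintile of proteins, 1.26%, 2.17%, 4.93%, 9.75% and 22.5% of mRNAs were called lower. In the longest quintile, of 825 residues or more, 3.32% were called higher. The difference between products with and without a hydrophobic stretch or segment was present in each quintile. In the shortest quintile the median log2 fold change was 0.45 with and -0.15 without, in the middle quintile 0.49 and -0.12, and in the longest -0.11 and -0.40. The smaller fit gave 0.78 and 0.26 in the shortest quintile and -0.30 and -0.59 in the longest. Length moved with whole-cell replicate 2 too, as given above, and the smaller fit leaves out that library and Gnl3 siRNA whole-cell replicate 3.

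**Figure D5:**
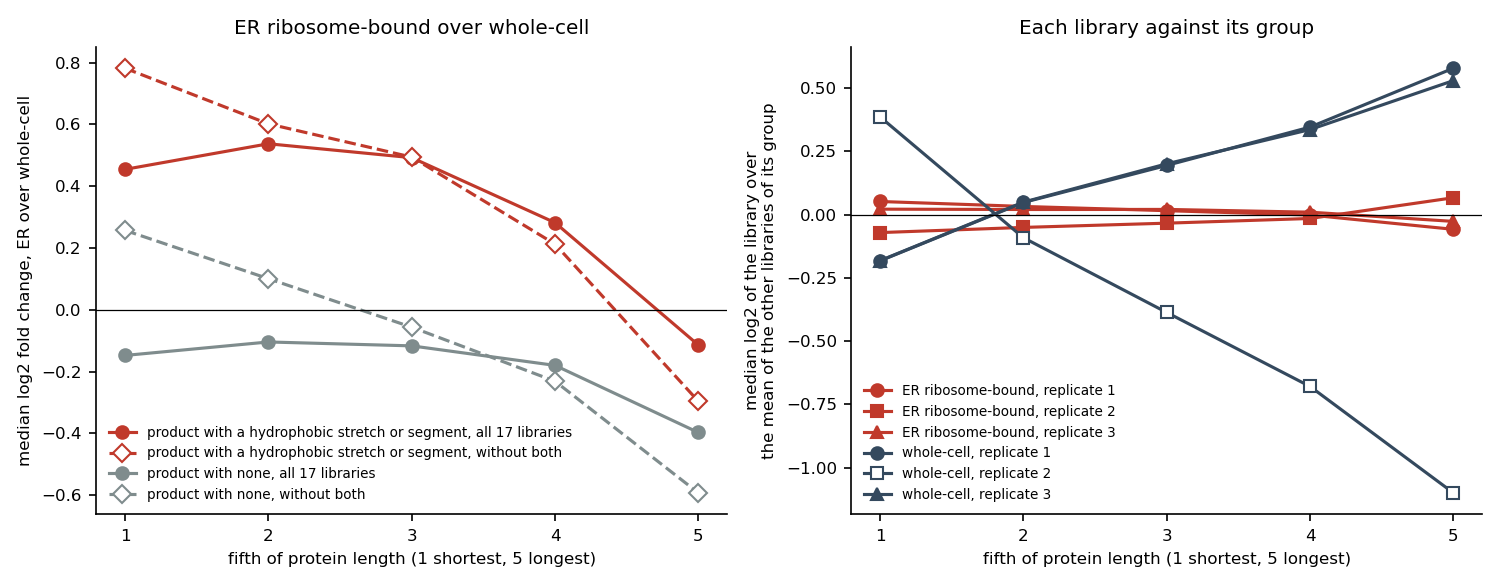
Left, median log2 fold change (ER ribosome-bound over whole-cell) by quintile of protein length, for products with (red) and without (grey) a hydrophobic stretch or segment, in both fits. Right, median log2 ratio of each library to the mean of the other libraries of its group, where whole-cell replicate 2 runs from 0.39 to -1.10 and the ER libraries stay within 0.07 of 0.

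Most giant mRNAs of cytosolic and nuclear proteins were lower on ER ribosomes. Of 61 giant mRNAs of cytosolic and nuclear proteins, 52 were called lower and 0 higher (median -1.42), and the smaller fit called 61 of 61 lower (median -1.75). The number called lower was 33 with lysate as a block. Over all genes 7.5% were called lower, and 25.6% in the smaller fit. In the longest quintile of proteins, among products with no hydrophobic stretch or segment, those shares were 27.8% and 73.9%. Bod1l, a very long chromatin-associated protein of 3032 residues, had 8.77, 8.06 and 7.34 CPM on ER ribosomes, against 54.6, 11.1 and 60.8 CPM in whole-cell RNA (log2 fold change -2.44 ± 0.41, adjusted p = 0.00109, and -2.85 in the smaller fit). Mdn1, the giant ATPase of 60S subunit assembly with 5582 residues, had 41.6, 59.1 and 41.1 CPM on ER ribosomes and 314, 67.6 and 290.2 CPM in whole-cell RNA (log2 fold change -2.29 ± 0.33, adjusted p = 0.000307, and -2.68 in the smaller fit). Rif1, a DNA replication timing and repair factor, had 63.9, 96.3 and 72.7 CPM on ER ribosomes and 479, 182 and 435 CPM in whole-cell RNA (log2 fold change -2.32 ± 0.27, adjusted p = 6.46e-05, and -2.56 in the smaller fit). In Bod1l and Mdn1, whole-cell replicate 2 was close to the ER values while the other whole-cell libraries were far above. Map1b, a microtubule-associated protein, had 22.3, 33.9 and 23.0 CPM on ER ribosomes and 158, 43.5 and 166 CPM in whole-cell RNA (log2 fold change -2.28 ± 0.36, adjusted p = 0.000626, and -2.62 in the smaller fit). Cenpf, a kinetochore protein, had 28.2, 37.4 and 31.5 CPM on ER ribosomes and 196, 89.3 and 177 CPM in whole-cell RNA (log2 fold change -2.35 ± 0.23, adjusted p = 1.73e-05, and -2.53 in the smaller fit). Knl1, a scaffold of the same structure, had 12.7, 15.98 and 11.3 CPM on ER ribosomes and 75.5, 23.2 and 72.1 CPM in whole-cell RNA (log2 fold change -2.16 ± 0.32, adjusted p = 0.000417, and -2.47 in the smaller fit). In each of these genes the groups did not overlap. The rule that picks the lowest genes requires this, so for genes picked by it the separation adds no support. Gcc2, a long coiled-coil tether on the cytosolic face of the Golgi, had 5.89, 8.70 and 5.51 CPM on ER ribosomes and 37.9, 18.4 and 35.8 CPM in whole-cell RNA (log2 fold change -2.30 ± 0.27, adjusted p = 7.04e-05, and -2.46 in the smaller fit).

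Of 31 giant mRNAs of membrane and secreted proteins, 1 was called lower, Itpr1, and 0 higher (median -0.13), and 17 were lower in the smaller fit (median -0.44). Membrane and secreted giants called lower numbered 2 without ER replicate 2 and 11 without whole-cell replicate 2. After a lowess trend of fold change on protein length was taken off, the median of the membrane and secreted giants was 0.66 and that of the cytosolic and nuclear giants -0.53. Itpr1, an ER calcium channel of 2749 residues, had 12.02, 22.3 and 12.5 CPM on ER ribosomes, against 53.7, 18.3 and 42.3 CPM in whole-cell RNA (log2 fold change -1.36 ± 0.26, adjusted p = 0.00255, and -1.61 in the smaller fit), and its groups overlapped through whole-cell replicate 2.

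Nuclear pore proteins were taken in 2 lists, those that span the membrane and those that do not. Of the 4 transmembrane members, Tmem33 was called higher and the others were not called. Tmem33, an ER and pore membrane protein, had 93.7, 97.1 and 108 CPM on ER ribosomes, against 53.9, 52.9 and 52.1 CPM in whole-cell RNA (log2 fold change 0.74 ± 0.14, adjusted p = 0.00189, and 0.90 in the smaller fit). Ndc1 had 139, 187 and 149 CPM on ER ribosomes and 114, 81.5 and 123 CPM in whole-cell RNA (log2 fold change 0.45 ± 0.16, adjusted p = 0.0653, and 0.41 in the smaller fit, adjusted p = 0.0016). Nup210 had 66.1, 95.8 and 74.7 CPM on ER ribosomes and 74.5, 26.5 and 78.5 CPM in whole-cell RNA (log2 fold change 0.32 ± 0.25, adjusted p = 0.454, and 0.04 in the smaller fit). Pom121 had 114, 222 and 113 CPM on ER ribosomes and 129, 62.6 and 140.3 CPM in whole-cell RNA (log2 fold change 0.34 ± 0.24, adjusted p = 0.379, and 0.15 in the smaller fit). In Pom121, ER replicate 2 was far above the other ER libraries. Without it the log2 fold change was -0.08. Of the 25 soluble pore proteins 8 were called lower and 0 higher (median -0.46), 18 in the smaller fit and 15 without whole-cell replicate 2 alone. Ranbp2, the cytoplasmic filament protein of 3053 residues, had 41.8, 47.5 and 47.0 CPM on ER ribosomes, against 163, 66.5 and 157 CPM in whole-cell RNA (log2 fold change -1.59 ± 0.23, adjusted p = 0.000332, and -1.82 in the smaller fit). Tpr, of the nuclear basket, had 109.9, 114 and 111 CPM on ER ribosomes and 316, 132 and 320.0 CPM in whole-cell RNA (log2 fold change -1.29 ± 0.27, adjusted p = 0.00426, and -1.52 in the smaller fit).

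Calls on membrane proteins that reach their membrane after synthesis stand beside a background of 7.71% higher and 7.5% lower over all genes, and 24.5% and 25.6% in the smaller fit. Of 58 tail-anchored proteins and SNAREs, 3 were called higher and 2 lower (median -0.18), and 19 higher and 8 lower in the smaller fit (median 0.07). Tail-anchored members called higher numbered 7 without whole-cell replicate 2 and 1 with lysate as a block. Those called lower numbered 1 without ER replicate 1, 2 or 3 or whole-cell replicate 1, 4 without whole-cell replicate 2 and 0 with lysate as a block. Bak1, the pore-forming apoptosis protein, had 137, 124 and 138 CPM on ER ribosomes and 80.3, 44.8 and 108 CPM in whole-cell RNA (log2 fold change 0.67 ± 0.16, adjusted p = 0.00854, and 0.48 in the smaller fit). Emd, emerin of the inner nuclear membrane, had 108, 99.9 and 98.7 CPM on ER ribosomes and 57.4, 42.1 and 80.6 CPM in whole-cell RNA (log2 fold change 0.64 ± 0.15, adjusted p = 0.00734, or 0.0575 with lysate as a block, and 0.55 in the smaller fit). Of 34 mitochondrial carriers of the Slc25 family, 3 were called higher and 4 lower (median -0.12), and 13 and 6 in the smaller fit (median 0.16). Those called lower numbered 2 without ER replicate 1, 2 or 3 and 1 with lysate as a block. The higher members included Slc25a17, which resides in peroxisomes and not in mitochondria, with 75.3, 74.7 and 78.6 CPM on ER ribosomes, against 45.7, 39.1 and 47.0 CPM in whole-cell RNA (log2 fold change 0.64 ± 0.12, adjusted p = 0.00189, and 0.71 in the smaller fit). Ucp2, an uncoupling protein homologue of the mitochondrial inner membrane, was also higher, at 253, 219 and 231 CPM on ER ribosomes and 147, 54.5 and 174 CPM in whole-cell RNA (log2 fold change 0.83 ± 0.22, adjusted p = 0.0188, and 0.54 in the smaller fit). The call on Ucp2 was lost without ER replicate 1 (adjusted p = 0.0674).

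Of 22 peroxisomal membrane proteins 7 were called higher and 1 lower (median 0.40), 17 and 2 in the smaller fit. The number called higher was 4 without ER replicate 3, 4 without whole-cell replicate 1 and 4 with lysate as a block. Pxmp4, a small peroxisomal membrane protein, had 16.9, 17.01 and 16.4 CPM on ER ribosomes and 5.75, 6.14 and 8.05 CPM in whole-cell RNA (log2 fold change 1.17 ± 0.17, adjusted p = 0.000332, and 1.26 in the smaller fit). Pex14, a docking factor for matrix import, had 83.6, 85.1 and 78.9 CPM on ER ribosomes and 44.8, 33.3 and 49.2 CPM in whole-cell RNA (log2 fold change 0.82 ± 0.18, adjusted p = 0.00582, and 0.80 in the smaller fit). Far1, the tail-anchored fatty acyl-CoA reductase of ether lipid synthesis, was the member called lower, with 53.4, 53.7 and 59.4 CPM on ER ribosomes and 99.2, 91.7 and 85.7 CPM in whole-cell RNA (log2 fold change -0.90 ± 0.16, adjusted p = 0.00126, and -0.74 in the smaller fit). Of 26 peroxisomal matrix and soluble proteins 0 were called higher and 3 lower (median -0.25), and 3 higher and 8 lower in the smaller fit (median -0.09). Matrix and soluble members called lower numbered 6 without whole-cell replicate 2 and 1 with lysate as a block.

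For nuclear-encoded mitochondrial proteins the median turned with the choice of fit. Of 76 respiratory chain subunits 0 were called higher and 2 lower in the 17-library fit (median -0.23), while the smaller fit called 67 higher and 3 lower (median 0.46). Of 78 mitochondrial ribosomal proteins 1 was called higher, Mrpl4 (median -0.20), against 57 higher and 1 lower in the smaller fit (median 0.35). Over all genes the smaller fit called 24.5% higher, and in the shortest quintile of proteins 52.1%. Without whole-cell replicate 2 alone, 42 respiratory and 26 ribosomal members were called higher. The cytosolic ribosomal proteins, also short, did likewise. None of the 49 of the large subunit was called in the 17-library fit (median -0.39), and 43 were higher in the smaller fit (median 0.37). Of 33 of the small subunit 1, Rps2, was called lower (median -0.47), and 30 were higher in the smaller fit (median 0.43). After the length trend was taken off, the smaller fit's medians were 0.01 for the large and 0.03 for the small subunit. In the 17-library fit they stayed at -0.37 and -0.43 after the same step. That step gave medians of 0.11 for the respiratory and 0.01 for the mitochondrial ribosomal list in the smaller fit. In the 17-library fit it gave -0.17 and -0.24 for these 2 lists. Without whole-cell replicate 2 alone 23 large-subunit and 14 small-subunit members were called higher. Rps2 had 2256, 2126 and 1944 CPM on ER ribosomes and 2961, 4173 and 2550.4 CPM in whole-cell RNA (log2 fold change -0.83 ± 0.23, adjusted p = 0.0212, or 0.0821 with lysate as a block, and -0.39 in the smaller fit). The call on Rps2 was lost without ER replicate 1, ER replicate 2 or ER replicate 3 (adjusted p = 0.0574 to 0.0867). Its counts may be split with processed copies.

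The mitochondrial genome encodes 13 mRNAs, which are translated inside the organelle, and the 11 of them that could be tested were far lower on the purified ribosomes. Mitochondrially encoded RNA took 0.0204%, 0.0212% and 0.0236% of gene counts in the ER libraries, against 1.15%, 0.769% and 1.92% in the whole-cell libraries. These 11 mRNAs were called lower in both fits, with and without the block, with a median log2 fold change of -6.40, and -6.38 where members with 3 counts or fewer were held at 3 counts over the group. mt-Co1, a cytochrome oxidase subunit, had 105, 103 and 112 CPM on ER ribosomes, against 5134, 1762 and 7979 CPM in whole-cell RNA (log2 fold change -5.60 ± 0.49, adjusted p = 8.89e-06, and -5.95 in the smaller fit). mt-Cytb, the cytochrome b of complex III, had 17.5, 20.7 and 20.1 CPM on ER ribosomes and 1604, 1103 and 3001 CPM in whole-cell RNA (log2 fold change -6.72 ± 0.41, adjusted p = 2.79e-07, and -6.90 in the smaller fit). mt-Nd6, of complex I, had 5.29, 6.05 and 6.37 CPM on ER ribosomes and 439, 522 and 487 CPM in whole-cell RNA (log2 fold change -6.53 ± 0.52, adjusted p = 5.6e-06, and -6.30 in the smaller fit). The complex I subunits mt-Nd1, mt-Nd2, mt-Nd4 and mt-Nd5 had log2 fold changes of -5.86, -6.61, -5.75 and -6.40. mt-Nd5 and mt-Nd6 overlap on opposite strands. mt-Co2 and mt-Atp6 had 5 and 6 counts over the 3 ER libraries, against 535 and 219 over the whole-cell libraries. mt-Co3 and mt-Nd3 had 1 ER count each, against 258 and 87. The ER level of mt-Co3 was 0.00399 times the whole-cell mean (exact Poisson 95% interval 0.000101 to 0.0223) and that of mt-Nd3 0.0126 times (0.000320 to 0.0704). These intervals cover counting error only, and reads without molecular identifiers are not independent molecules. mt-Nd4l and mt-Atp8 had 0 counts on ER ribosomes and 8 and 7 in whole-cell RNA and were not tested.

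Outside that list, the 2 lowest genes under the rule for naming genes were copies of mitochondrial sequence. The rule admits genes of at least 10 CPM on average, called in both fits and without overlap of the fractions. Both genes reached that average through the whole-cell libraries. Over all genes tested, with no such limits, the lowest log2 fold change was -8.98. The transcript of Gm28661 is 100.0% identical to mt-Co2 over 681 bases, and that of Gm13340 97.6% identical to mt-Co1 over 1545 bases. Gm28661 had 0.0601, 0.148 and 0.408 CPM on ER ribosomes and 19.5, 70.4 and 14.1 CPM in whole-cell RNA (log2 fold change -7.64 ± 0.95, adjusted p = 0.000121, and -6.27 in the smaller fit). Gm13340 had 0.541, 0.295 and 0.204 CPM on ER ribosomes and 36.3, 13.0 and 24.2 CPM in whole-cell RNA (log2 fold change -6.24 ± 0.61, adjusted p = 2.02e-05, and -6.47 in the smaller fit). Counts may be split between these copies and the mitochondrial genes. For Gm28661, whole-cell replicate 2 was far above the other whole-cell libraries.

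Several long noncoding RNAs known to stay in the nucleus were lower on ER ribosomes. Of 24 tested 10 were called lower and 0 higher (median -0.64), and 14 lower in the smaller fit. The list also holds the snoRNA host gene Gas5, and Snhg11, which is annotated as protein-coding and was called lower. All lincRNA, antisense and other long noncoding genes together took 2.05% of gene counts on ER ribosomes and 2.01% in whole-cell RNA (means, exact permutation p = 0.5). Rian, an imprinted snoRNA and miRNA host transcript, had 22.2, 20.2 and 25.1 CPM on ER ribosomes, against 187, 99.6 and 193 CPM in whole-cell RNA (log2 fold change -2.94 ± 0.16, adjusted p = 9.43e-08, and -3.09 in the smaller fit). Malat1, of nuclear speckles, had 32.98, 39.2 and 38.6 CPM on ER ribosomes and 307, 152 and 189 CPM in whole-cell RNA (log2 fold change -2.67 ± 0.22, adjusted p = 6.53e-06, and -2.75 in the smaller fit). The overlapping opposite-strand entry Gm37376 had 4.99, 5.61 and 4.49 CPM on ER ribosomes and 35.0, 30.0 and 22.3 CPM in whole-cell RNA (log2 fold change -2.70 ± 0.33, adjusted p = 0.000114, and -2.51 in the smaller fit), and its reads and those of Malat1 cannot be told apart. Dleu2 had 1.26, 1.23 and 2.09 CPM on ER ribosomes and 10.3, 8.51 and 8.28 CPM in whole-cell RNA (log2 fold change -2.72 ± 0.34, adjusted p = 0.000127, and -2.60 in the smaller fit). Every ER library was below every whole-cell library for these RNAs. Where an RNA was picked by the rule for the lowest genes, that rule required the separation, which adds no support. Of 16 snoRNA host genes 3 were called lower, Dancr, Snhg14 and Snhg3 (median -0.76), and 3 lower and 1 higher in the smaller fit (median 0.02). Host genes called lower numbered 8 without whole-cell replicate 1 and 9 without whole-cell replicate 3.

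Genes of ribosome assembly, the process in which Nmd3 acts, gave calls in the lower direction in the 17-library fit. Of 66 members of 60S assembly and export 14 were called lower and 0 higher (median -0.30), and 33 lower and 8 higher in the smaller fit (median -0.14). The number called lower was 5 without ER replicate 1, 7 without ER replicate 3, 9 without whole-cell replicate 1 and 4 with lysate as a block. Besides Nmd3 and Mdn1, Urb1, a long assembly factor of 2277 residues, had 31.7, 40.7 and 34.7 CPM on ER ribosomes and 98.9, 48.1 and 102 CPM in whole-cell RNA (log2 fold change -1.32 ± 0.21, adjusted p = 0.00059, and -1.50 in the smaller fit). Of 59 small-subunit processome and 40S assembly factors 13 were called lower and 0 higher (median -0.38), and 32 lower and 13 higher in the smaller fit (median -0.23). Utp20, a scaffold protein of 2789 residues, had 55.7, 85.9 and 56.8 CPM on ER ribosomes and 272, 139 and 269 CPM in whole-cell RNA (log2 fold change -1.88 ± 0.18, adjusted p = 1.73e-05, and -2.04 in the smaller fit). The GTPase Bms1 had 67.9, 144 and 71.2 CPM on ER ribosomes and 253, 202 and 234 CPM in whole-cell RNA (log2 fold change -1.42 ± 0.23, adjusted p = 0.000873, and -1.36 in the smaller fit). ER replicate 2 was the highest ER library for all of these but Nmd3, and stood well above the others for Bms1. The number of 40S assembly factors called lower was 7 with lysate as a block. Of 48 translation factors 7 were called lower and 0 higher (median -0.24). The smaller fit called 17 lower and 14 higher (median -0.02), beside 25.6% lower and 24.5% higher over all genes. The number called lower was 2 without ER replicate 1, 2 without ER replicate 3, 11 without whole-cell replicate 3 and 3 with lysate as a block. Eif3a, the largest subunit of initiation factor eIF3, had 202, 325 and 208 CPM on ER ribosomes, against 715, 404 and 623 CPM in whole-cell RNA (log2 fold change -1.36 ± 0.24, adjusted p = 0.0016, and -1.45 in the smaller fit).

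Gnl3, nucleostemin, target of the other siRNA of the series, had 164, 263 and 179.8 CPM on ER ribosomes and 279.9, 276 and 268 CPM in whole-cell RNA (log2 fold change -0.61 ± 0.21, adjusted p = 0.0695, and -0.44 in the smaller fit), and without ER replicate 2 it was called lower (log2 fold change -0.86, adjusted p = 0.0199).

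Other cytosolic and nuclear lists held more lower than higher calls in the 17-library fit. Over all genes, 7.71% were called higher and 7.5% lower, and 24.5% and 25.6% in the smaller fit. Of 55 mitosis and kinetochore genes 19 were called lower and 0 higher (median -0.37), of 49 DNA replication genes 10 and 0 (median -0.28), and of 48 cytoskeletal genes 8 and 0 (median -0.18). Cenpe, a kinetochore motor of 2471 residues, had 22.6, 28.4 and 25.7 CPM on ER ribosomes and 120.2, 59.997 and 109.7 CPM in whole-cell RNA (log2 fold change -2.02 ± 0.24, adjusted p = 8.85e-05, and -2.17 in the smaller fit). Dync1h1, the dynein heavy chain, had 51.3, 78.4 and 54.1 CPM on ER ribosomes and 255, 88.4 and 257 CPM in whole-cell RNA (log2 fold change -1.78 ± 0.24, adjusted p = 0.000221, and -2.07 in the smaller fit). The smaller fit called 31 mitosis, 23 replication and 21 cytoskeletal genes lower, and 9, 6 and 12 higher. The number of replication genes called lower was 17 without whole-cell replicate 2 and 4 with lysate as a block. The number of cytoskeletal genes called lower was 5 without ER replicate 1, 5 without whole-cell replicate 1, 16 without whole-cell replicate 2 and 3 with lysate as a block. Of 34 proteasome subunits 1 was called higher and 3 lower (median -0.33), against 22 and 4 in the smaller fit (median 0.19), and of 18 glycolytic enzymes 0 and 1 (median -0.15), against 5 and 6. With scaling by library totals the cytoskeletal and glycolytic medians were 0.02 and 0.05, so their sign depends on the scaling. Of 27 cytosolic heat shock genes 2 were called higher and 3 lower, and 7 and 11 in the smaller fit. Heat shock genes called higher numbered 1 without ER replicate 2 or whole-cell replicate 1 and 0 with lysate as a block. Those called lower numbered 1 without ER replicate 1, 2 or 3, 6 without whole-cell replicate 3 and 0 with lysate as a block.

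Lists defined by regulation held calls in both directions, beside 7.71% higher and 7.5% lower over all genes. In the smaller fit those shares over all genes were 24.5% and 25.6%. Of 43 p53 target genes 11 were called higher and 1 lower (median 0.22), and 21 and 7 in the smaller fit (median 0.20). Targets of p53 called higher numbered 7 with lysate as a block. Those called lower numbered 5 without whole-cell replicate 2. Ephx1, an epoxide hydrolase of the ER membrane, had 30.9, 35.2 and 31.2 CPM on ER ribosomes, against 12.8, 8.82 and 11.7 CPM in whole-cell RNA (log2 fold change 1.41 ± 0.14, adjusted p = 2.25e-05, and 1.40 in the smaller fit). Pltp, the secreted phospholipid transfer protein, had 134, 153 and 122 CPM on ER ribosomes and 58.5, 49.5 and 64.3 CPM in whole-cell RNA (log2 fold change 1.10 ± 0.14, adjusted p = 0.000166, and 1.14 in the smaller fit). Ercc5, a nuclear repair endonuclease, was the member called lower, with 28.4, 29.7 and 26.8 CPM on ER ribosomes and 53.7, 38.4 and 49.4 CPM in whole-cell RNA (log2 fold change -0.88 ± 0.13, adjusted p = 0.000314, and -0.87 in the smaller fit). Of 39 integrated stress response targets 3 were called higher and 8 lower, and 11 and 16 in the smaller fit. Their higher calls lay near the share over all genes. The number called lower was 3 without ER replicate 1, 5 without ER replicate 2, 3 without ER replicate 3 and 3 with lysate as a block. The cytosolic tRNA synthetase Mars had 58.2, 150.1 and 50.9 CPM on ER ribosomes and 336, 199 and 316 CPM in whole-cell RNA (log2 fold change -1.82 ± 0.34, adjusted p = 0.00196, and -1.91 in the smaller fit) and overlaps Ddit3 on the other strand. Eprs, another cytosolic synthetase, had 184, 277 and 183 CPM on ER ribosomes and 625, 322 and 578 CPM in whole-cell RNA (log2 fold change -1.35 ± 0.18, adjusted p = 0.000219, and -1.49 in the smaller fit). For Mars, ER replicate 2 was well above the other ER libraries and still below every whole-cell library. Stc2, the secreted stanniocalcin, was higher, with 51.5, 51.1 and 54.5 CPM on ER ribosomes and 29.6, 15.0 and 30.9 CPM in whole-cell RNA (log2 fold change 0.95 ± 0.16, adjusted p = 0.00082, and 0.78 in the smaller fit).

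Calls on marker lists stand beside 7.71% higher and 7.5% lower over all genes, and 24.5% and 25.6% in the smaller fit. Of 38 pluripotency genes 4 were called higher and 5 lower, and 17 and 11 in the smaller fit. The number called lower was 2 without ER replicate 1, 3 without ER replicate 2, 2 without ER replicate 3, 8 without whole-cell replicate 2 and 2 with lysate as a block. Tdgf1, a GPI-anchored Nodal co-receptor, had 2456, 2369 and 2568 CPM on ER ribosomes, against 1109.6, 1138 and 1184 CPM in whole-cell RNA (log2 fold change 0.94 ± 0.14, adjusted p = 0.000354, and 1.09 in the smaller fit). Tbx3, a transcription factor with no hydrophobic segment in its product, was also higher, at 174, 164 and 170.4 CPM on ER ribosomes and 106, 62.4 and 118 CPM in whole-cell RNA (log2 fold change 0.71 ± 0.13, adjusted p = 0.00156, and 0.58 in the smaller fit). The RNA-binding protein Lin28b had 13.1, 13.5 and 14.7 CPM on ER ribosomes and 35.2, 19.4 and 33.2 CPM in whole-cell RNA (log2 fold change -1.20 ± 0.18, adjusted p = 0.000467, and -1.32 in the smaller fit). Among differentiation markers, Sparc, a secreted matrix protein, had 449, 469 and 489 CPM on ER ribosomes and 183, 107 and 201 CPM in whole-cell RNA (log2 fold change 1.40 ± 0.13, adjusted p = 8.89e-06, and 1.28 in the smaller fit). Nes, the intermediate filament protein nestin, had 10.0, 15.4 and 12.5 CPM on ER ribosomes and 37.1, 22.9 and 29.0 CPM in whole-cell RNA (log2 fold change -1.36 ± 0.17, adjusted p = 0.000138, and -1.38 in the smaller fit). Of 15 fibroblast or feeder markers 4 were called higher and 0 lower, and 5 and 0 in the smaller fit. Fibroblast or feeder markers called higher numbered 2 without ER replicate 2 or 3 and 2 with lysate as a block. Of 17 primitive endoderm markers 1 was called higher and 0 lower, and 1 and 4 in the smaller fit. Endoderm markers called lower numbered 1 without ER replicate 2 and 2 without whole-cell replicate 2. Of 22 epiblast, neural and germ layer markers 0 were called higher and 2 lower, and 1 and 6 in the smaller fit. Members of that list called lower numbered 1 without ER replicate 1 or 2 or whole-cell replicate 1 or 3, 4 without whole-cell replicate 2 and 1 with lysate as a block.

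The last comparison asked whether the ER to whole-cell ratio after Nmd3 siRNA differed from that after scramble siRNA. The edgeR interaction test called 0 of 18525 genes (0% of the genes tested), with 366 genes at an unadjusted p under 0.05 and a smallest adjusted p of 0.91. The smaller fit also called 0, with 1078 genes at an unadjusted p under 0.05 and a smallest adjusted p of 0.0765. DESeq2 called 0 with all libraries and 2 without both, Nmd3 and Ftl1, and edgeR with the lysate block called 1 without both, Ftl1. These genes were named after their values were seen. Nmd3 had log2 ratios of ER to whole-cell RNA lower by 0.46 ± 0.10 after its own siRNA than after scramble (DESeq2, adjusted p = 0.0319), with CPM as given above. Ftl1, the ferritin light chain of cytosolic iron storage, had 438, 365 and 368 CPM on ER ribosomes and 728, 965 and 596 CPM in whole-cell RNA after Nmd3 siRNA. Its counts may be split with processed copies. After scramble siRNA it had 476 and 475 CPM on ER ribosomes and 566, 557 and 556 CPM in whole-cell RNA. Its interaction was -0.50 ± 0.11 in DESeq2 and -0.48 ± 0.08 in edgeR with the block (adjusted p = 0.0319 and 0.0227). For Cd68, Nucb1, Trh and Sec61a1, among the genes described above, the interaction was 0.22, 0.11, -0.07 and 0.19 in the smaller fit and was not called. For Thy1 it was larger, 0.59, and was not called either (edgeR, adjusted p = 0.54). A p that misses the threshold does not show that the ratios were alike.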

How the data were processed

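The labels describe polyA-selected, strand-marking libraries with paired-end reads. Each deposited file gives 1 library's counts per gene as whole numbers, not normalized. STAR 2.7.9a, HTSeq 0.11.2, DESeq2 and the build GRCm39 are named in the submitters' processing notes, and the annotation release and the strand setting are not given in the sources used here. The 5 lines of each file that name no gene entered no total and no test; in the 6 libraries, entries with no feature were 46.7% to 48.3% and those not unique 5.11% to 8.70%. Each file lists 55416 gene IDs, of which 52083 were given a symbol from GENCODE M21. That annotation is on GRCm38, so no positions are given beyond chromosome and strand.

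Genes were compared in R 4.3.3 with edgeR 4.0.16 (filterByExpr, TMM, robust glmQLFit, glmQLFTest), in 1 fit of 17 libraries with a mean for each of 6 groups and Benjamini-Hochberg adjustment over all genes tested. Adjusted p-values under 0.05 made a call. The standard error is the absolute log2 fold change over the square root of F. CPM are a gene's counts over the library's gene counts, with no TMM factor. Depth sets a floor of 3 counts, 0.132 to 0.187 CPM in the 6 libraries. Intervals cover counting error only. DESeq2 1.42.0, other scalings, no filter, a lysate block and leaving out libraries were alternatives. The fit was also run on simulated counts in which few genes were changed and no library stood apart. That run cannot show how the fit handles whole-cell replicate 2.

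Each lysate gave both fractions, so replicate numbers pair the libraries by design. Deviations of same-numbered libraries correlated between -0.146 and -0.0807 across genes, and those of differently numbered libraries between -0.0674 and 0.139. Both ranges hold whole-cell replicate 2. P-values measure the spread between these cultures.

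The 41 lists (1693 of 1704 symbols matched), the protein classes and the rule for naming genes were chosen with earlier results of these data known. The rule takes Nmd3, Gnl3 and Rpl31, the 12 highest and 12 lowest genes of at least 10 CPM called in both fits without overlap, up to 3 called members per list and up to 2 called the other way, every V-ATPase, pore membrane and mitochondrially encoded member, and interaction calls. Protein features came from GENCODE M21 coding sequences, translated here, in place of the RefSeq proteins first planned. No replicate libraries held identical values.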

Additional observations from a re-analysis of the deposited data

How the results depend on the processing

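The 17-library fit called 2819 genes. RLE scaling (2828), library totals (2281), no filter on low counts (2125) and DESeq2 (3556) stayed within 1.5 times of that count. It was 9152 without both libraries that stood apart, 8665 in DESeq2 without both, 8543 with the replicate block without both, 1320 with the replicate block on all libraries, 729 in a fit of the 6 Nmd3 siRNA libraries alone, and 7710 in that fit without whole-cell replicate 2. Leaving out 1 library gave 1785 to 5421. The interaction with scramble stayed at 0 except for 1 gene with the replicate block and 2 in DESeq2, both without the 2 libraries. Of 155 named genes, 142 kept direction and call without both libraries and 155 with RLE scaling. With the replicate block 118 did, and 37 kept the direction and lost the call. In the fit of the 6 Nmd3 siRNA libraries alone 88 did, and 67 kept the direction and lost the call. With a call under the alternative, direction turned for Atp6v1d (0.41 without both, 0.41 in Nmd3 siRNA libraries without whole-cell replicate 2, 0.48 with the block without both, 0.40 in DESeq2 without both) and for Atp6v1g1 (0.32, 0.32, 0.32 and 0.32 in the same order, -0.67 to 0.31 with 1 library left out, the highest without whole-cell replicate 2), and for Pom121 (-0.26 with the block without both). With no call, the sign also changed without both for Atp6v1c1 (0.05), Atp6v1e1 (0.11) and Atp6v1h (0.01), and under some other settings for Rpl31, Atp6v1f and Nup210. The cause was not tested. Depth limits the mitochondrially encoded mRNAs with 1 to 6 counts on ER ribosomes.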
